A study of Mus musculus with 7 samples.

Results

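Claudins are the membrane proteins that form the strands of the tight junction and set which ions and how much water can pass between neighbouring epithelial cells. The 10 claudins described here were taken by gene symbol from the count table, as the members of the family that mark the successive tubule segments of the kidney. They are Cldn2 and Cldn12, called here the proximal claudins, Cldn10, Cldn16 and Cldn19, the claudins of the thick ascending limb, Cldn3, Cldn4, Cldn7 and Cldn8, the distal claudins, and Cldn1, which belongs to no single segment and is known from the parietal cells of Bowman's capsule. They are 10 of 54532 genes in the table, and all 10 were among the 15351 genes with enough counts to be tested.

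The samples were whole kidneys of male C57BL/6J mice aged 6 to 8 weeks, in which cisplatin had been used to cause acute kidney injury. The group named Cis_DXZ (3 libraries) received cisplatin at 20 mg/kg and DXZ at 40 mg/kg, both into the tail vein. DXZ was first injected 30 min ahead of cisplatin and repeated at intervals of 24 h over 3 days. It is given only by this abbreviation in the labels. The group named Cis_Saline (4 libraries) received the same cisplatin and saline, and no library came from a kidney without cisplatin. Total RNA was sequenced in bulk. The labels do not say that each library is a separate animal, so the p-values below measure the spread between libraries, which may in part be technical.

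The libraries held 16058157 to 18133736 counts each, 20803 to 21827 genes were detected per library, and mitochondrial genes took 5.18% to 8.35% of the counts. DXZ 1 stood apart from the rest of its group in markers outside the tubule. The 10 endothelial markers summed to 665, 183 and 129 CPM with DXZ, against 496, 609, 459 and 378 CPM with saline, and the 7 fibroblast markers to 809, 96.6 and 55.7 CPM with DXZ, against 501, 550.2, 233 and 142 CPM with saline. In both sums DXZ 2 and DXZ 3 lay below every saline library and DXZ 1 above every one. Levels are given as CPM, that is counts scaled to a common library size with the trimmed mean of M values, and comparisons between genes use the deposited FPKM, which also divides by gene length. Fold changes are DXZ over saline on the log2 scale with their standard error (SE), from edgeR's quasi-likelihood test over all tested genes, and a gene is said to have risen or fallen where its Benjamini-Hochberg adjusted p was below 0.05. In bulk kidney RNA, fewer cells of a segment and less RNA per cell cannot be told apart. Gene coordinates are those of GRCm38.

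Some claudins seal the junction, and others form selective pores through it. Cldn2 forms a pore for sodium and water in the leaky proximal tubule, and Cldn12 is found in the same epithelium. Cldn10 forms the sodium route of the thick ascending limb in its b isoform and an anion route in the proximal tubule in its a isoform, while Cldn16 and Cldn19 together form the route for calcium and magnesium in the limb. Cldn3, Cldn4, Cldn7 and Cldn8 tighten the junctions of the distal nephron and collecting duct, where Cldn4 and Cldn8 together are known to form a chloride route in cultured collecting duct cells.

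Of the 10 claudins, 3 rose with DXZ (Cldn4, Cldn7 and Cldn3), 1 fell (Cldn2) and 6 did not pass the test. Over all tested genes 5.56% were called, 3.24% as higher and 2.31% as lower. The median log2 fold change was 0.15 for the 10 claudins and 0.01 for all tested genes. In the same 4 claudins that were called, the DXZ and saline libraries did not overlap, which was also so for 24.1% of all tested genes. These calls were not equally firm: without DXZ 2, edgeR called 0 of the 10 (4 had an unadjusted p below 0.05), and over the 7 fits that left out 1 library each the count lay between 0 and 5. Without DXZ 1 the count was 5, the same 4 and Cldn10. Calls over all genes moved in the same fits, so these counts do not speak of the claudins alone. EdgeR called 1 of 15705 tested genes without DXZ 2, 4 of 15205 without saline 4 and 1574 of 15610 without DXZ 1. An unadjusted p below 0.05 was common: 3191 of 15705 tested genes had it without DXZ 2. With all libraries and median-of-ratios scaling, 3890 of 15351 tested genes had it. The unadjusted counts of the gene lists below are to be read beside that share.

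The promoters of the 4 called claudins are shown because these genes differed between the groups. Each run is the 250 bases upstream of the start site, from RefSeq on GRCm38.p6, read 5′ to 3′ on the gene's strand. Capitals mark the AP-1 motif TGANTCA and the TATA box TATAAA, searched on both strands.
Cldn4, chr5:134946935-134947184, minus strand: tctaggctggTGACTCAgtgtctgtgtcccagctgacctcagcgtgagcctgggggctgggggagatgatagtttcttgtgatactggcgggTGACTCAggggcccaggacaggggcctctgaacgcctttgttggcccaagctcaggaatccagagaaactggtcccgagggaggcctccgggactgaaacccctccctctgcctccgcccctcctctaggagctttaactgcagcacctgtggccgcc
Cldn7, chr11:69964529-69964778, plus strand: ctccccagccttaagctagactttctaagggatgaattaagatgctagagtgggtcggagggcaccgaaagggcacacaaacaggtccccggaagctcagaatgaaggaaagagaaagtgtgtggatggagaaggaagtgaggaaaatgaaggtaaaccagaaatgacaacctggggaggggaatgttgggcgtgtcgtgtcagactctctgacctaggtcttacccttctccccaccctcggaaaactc
Cldn3, chr5:134985964-134986213, plus strand: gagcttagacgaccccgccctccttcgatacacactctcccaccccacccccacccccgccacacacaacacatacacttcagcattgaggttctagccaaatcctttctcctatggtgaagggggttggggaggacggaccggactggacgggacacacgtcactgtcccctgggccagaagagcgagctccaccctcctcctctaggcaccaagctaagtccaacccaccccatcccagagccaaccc
Cldn2, chrX:139800558-139800807, plus strand: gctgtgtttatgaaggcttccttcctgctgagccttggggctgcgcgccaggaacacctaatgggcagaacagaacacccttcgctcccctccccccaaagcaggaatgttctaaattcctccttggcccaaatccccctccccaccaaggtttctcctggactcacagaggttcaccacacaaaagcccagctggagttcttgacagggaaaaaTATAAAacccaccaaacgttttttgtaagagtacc
The Cldn4 window holds the AP-1 motif in 2 places, 240 and 158 bases before the start site. AP-1 is the dimer of Fos and Jun proteins. Of all 32851 promoter windows in the table, 6.75% hold this motif at least 1 time and 0.338% hold 2 or more copies. The Cldn2 window holds 1 TATA box, a motif found in 12.4% of all windows, and the Cldn7 and Cldn3 windows hold neither motif. Of the 10 claudins, 9 matched the table, with 14 windows because some have several start sites. Among these 14 windows the AP-1 motif and the TATA box are each present in 1. The palindrome AACCGGTT, bound by grainyhead-like factors, is in none of the 14 and in 0.116% of all windows. The GC box GGGCGG, which is not in capitals here, is in 9 of the 14 and in 32.7% of all windows. The cyclic AMP response element TGACGTCA is in 1 of the 14, the window of a second Cldn7 start site, which is not shown, and in 1.55% of all windows. The HNF1 motif was also searched and is in none of the 14 and in 0.00913% of all windows. The motifs were chosen after the sequences had been seen, and a match is a description of letters, not of binding.

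Cldn4 (ENSMUSG00000047501, chromosome 5, 134945119 to 134946934, minus strand) encodes the barrier claudin of the collecting duct and is a gene with 1 coding exon. Its level was 286, 286 and 276 CPM in the 3 DXZ libraries, against 88.3, 87.5, 105 and 62.2 CPM in the 4 saline libraries. The 3 DXZ libraries lay close together and well above every saline library, with saline 4 the lowest of all. The mean was 283 ± 6.07 CPM with DXZ and 85.8 ± 17.8 CPM with saline (SD, n = 3 and 4), so that the log2 fold change was 1.72 with an SE of 0.16, or 3.29-fold (adjusted p = 0.0138 in edgeR). Without DXZ 2 the log2 fold change was 1.70 and the adjusted p 0.0612, and in each of the other 6 fits with 1 library left out Cldn4 was called.

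Cldn7 (ENSMUSG00000018569, chromosome 11, 69964779 to 69967885, plus strand) is a basolateral and junctional claudin of the distal nephron. Its level was 76.4, 79.6 and 90.3 CPM with DXZ, against 38.4, 41.03, 49.5 and 35.8 CPM with saline. The lowest DXZ library lay above the highest saline library. The mean was 82.1 ± 7.28 CPM with DXZ and 41.2 ± 5.92 CPM with saline, and the fitted log2 ratio was 0.99 with an SE of 0.13, or 1.99-fold (adjusted p = 0.0204 in edgeR). It no longer passed without DXZ 2 (1.01, adjusted p = 0.0655) and without saline 4 (0.93, adjusted p = 0.0747).

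Cldn3 (ENSMUSG00000070473, chromosome 5, 134986214 to 134987472, plus strand) encodes a sealing claudin found from the thin limb to the collecting duct. It stood at 50.2, 73.1 and 91.3 CPM with DXZ, against 14.05, 30.98, 33.6 and 27.4 CPM with saline. The libraries spread widely within both groups, with DXZ 1 the lowest of its group and saline 1 the lowest of all, but the groups did not overlap. It averaged 71.5 ± 20.6 CPM with DXZ and 26.5 ± 8.69 CPM with saline, and the fitted log2 ratio was 1.43 with an SE of 0.30 (adjusted p = 0.0406 in edgeR). Cldn3 lost its call when DXZ 2 (1.41, adjusted p = 0.114), DXZ 3 (1.22, adjusted p = 0.109), saline 2 (1.51, adjusted p = 0.0713), saline 3 (1.57, adjusted p = 0.0569) or saline 4 (1.45, adjusted p = 0.112) was left out.

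Cldn8 (ENSMUSG00000050520, chromosome 16, 88560828 to 88563183, minus strand), the partner of Cldn4 in the collecting duct, did not pass the test. Its level was 61.3, 56.7 and 86.03 CPM with DXZ and 35.5, 45.3, 78.3 and 84.3 CPM with saline. The groups overlapped, since saline 3 and saline 4 stood near DXZ 3 at the top, while saline 1 and saline 2 lay below every DXZ library. Its log2 fold change was 0.16 ± 0.31 (edgeR adjusted p = 0.791), and it turned to -0.05 without DXZ 3 and -0.03 without saline 1. The 4 distal claudins thus comprised 3 that rose and 1 whose groups overlapped. The FPKM ratio of Cldn4 to Cldn8 was 6.05, 6.54 and 4.15 with DXZ, against 3.23, 2.504, 1.75 and 0.957 with saline.

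**Figure D1:**
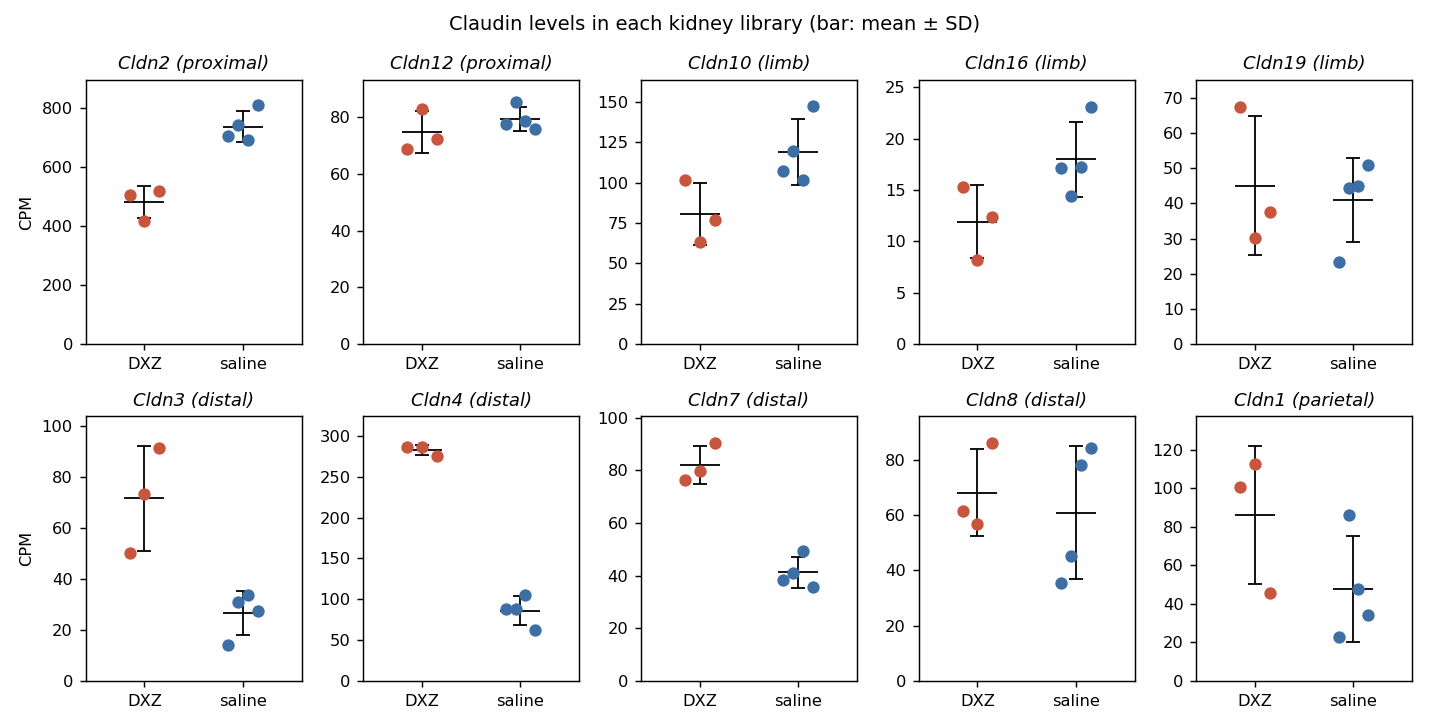
Level of each of the 10 claudins in CPM on axes that start at 0, with 1 point per library, DXZ (n = 3) left of saline (n = 4) and bars for mean ± SD. The points of Cldn4, Cldn7 and Cldn3 lie higher with DXZ and those of Cldn2 lower, with no overlap between the groups, and the points of the other 6 overlap.

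Markers of other cell types were set beside the distal claudins. The 8 urothelial markers, from the lining of the renal pelvis, which is also known to make Cldn4, summed to 105, 22.3 and 112 CPM with DXZ, against 3.96, 13.7, 50.2 and 8.64 CPM with saline. Each of the 8 was higher with DXZ by its log2 fold change, with a median of 1.89. With 1 library left out the median ran from 1.45 (without DXZ 3) to 2.88 (without saline 3). However, edgeR called 0 of the 8 (4 at an unadjusted p below 0.05) and DESeq2 0. They were low in all libraries, and the uroplakin gene Upk3a was at 10.1, 2.30 and 14.8 CPM with DXZ and 0.115, 0.833, 4.64 and 0.294 CPM with saline, and Upk2 was at 0 in saline 1. In the urothelial sum DXZ 1 and DXZ 3 lay above every saline library, while DXZ 2, at 22.3 CPM, lay below the 50.2 CPM of saline 3. Saline 3 was the highest saline library for Cldn4 too, at 105 CPM, against 286 CPM in DXZ 2. Whether urothelium had a part in the Cldn4 levels was not tested.

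Principal cells are the sodium and water reabsorbing cells of the collecting duct and make Cldn4 and Cldn8. Their 12 markers, 11 of them tested, summed to 1786, 1652 and 3394 CPM with DXZ, against 1075, 1280, 2141 and 2182 CPM with saline. The groups overlapped, because DXZ 1 and DXZ 2 lay below saline 3 and saline 4. The median log2 fold change of the 11 was 0.26, with a range from 0.0868 (without DXZ 3) to 0.42 (without saline 3) when 1 library was left out. Of the 11, 1 rose, Fxyd4 (1.31 ± 0.26, edgeR adjusted p = 0.0338), a regulator of the sodium pump. The vasopressin receptor gene Avpr2, which was not tested, had at most 0.294 CPM and was at 0 in 4 of the 7 libraries. The call of Fxyd4 was lost without DXZ 2, DXZ 3, saline 1, saline 2 or saline 4, with log2 fold changes from 0.99 to 1.53.

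The 8 thin limb markers summed to 755 to 1227 CPM with DXZ and 1164 to 1510 CPM with saline, with 0 of 8 called by edgeR (3 at an unadjusted p below 0.05), 2 by DESeq2 and a median log2 fold change of 0.51 (0.15 without saline 1, 0.80 without saline 4). Most of this sum was Aqp1, at 395 to 686 CPM with DXZ and 862 to 1123 CPM with saline, which is also listed as a proximal tubule marker. By log2 fold change, 6 of the 8 thin limb markers were higher with DXZ and 2 lower, so the sum does not stand for the list. Of 11 intercalated cell markers edgeR called 0 (3 unadjusted) and DESeq2 1, and their median was -0.02, between -0.04 and 0.08 when 1 library was left out. Of 10 markers of the distal convoluted and connecting tubule, 2 fell, the sodium chloride cotransporter Slc12a3 (-1.59, edgeR adjusted p = 0.0192) and the calcium buffer Pvalb (-4.36, adjusted p = 0.0333). All 10 had negative log2 fold changes, with a median of -0.59, between -0.77 and -0.33 when 1 library was left out. Pvalb was near 0 with DXZ, at 0.113, 0.0605 and 0 CPM, against 0.573, 2.44, 0.855 and 1.53 CPM with saline, so its fitted value is no measure of size. Of the 7 fits without 1 library, Pvalb was called in 2 (without DXZ 1 or saline 1), was not called without DXZ 2 or DXZ 3, and was too low to be tested in the other 3. Slc12a3 was not called without DXZ 2 or saline 4. The counts of this list ran from 0 to 3 lower in those 7 fits. The 14 tubule injury markers summed to 22698, 37251 and 27874 CPM with DXZ, against 8521, 19509, 24281 and 22133 CPM with saline, and 5 of them rose, among them the keratin Krt18 (1.47, edgeR adjusted p = 0.0208), with a median log2 fold change of 1.33 over the 14. None of the 5 was called without DXZ 2 or saline 4, and 3 of the 14 were called without DXZ 3. The part of any of these cell types in the rise of the distal claudins was not tested.

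Among the proximal claudins, Cldn2 (ENSMUSG00000047230, chromosome X, 139800828 to 139811386, plus strand), the sodium and water pore, fell. Its level was 504, 418 and 519 CPM with DXZ, against 704, 743, 691 and 809.8 CPM with saline. Every DXZ library lay below the lowest saline library, and DXZ 2 was the lowest. It averaged 481 ± 54.5 CPM with DXZ and 737 ± 53.3 CPM with saline, and the fitted log2 ratio was -0.62 with an SE of 0.13 (adjusted p = 0.0390 in edgeR), or 1.53-fold higher in saline. The fall was called in 1 of the 7 fits with 1 library left out, the one without DXZ 1. Without any other single library the adjusted p lay above 0.05, with the highest at 0.114, and the log2 fold change stayed between -0.68 and -0.54.

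Cldn12 (ENSMUSG00000046798, chromosome 5, 5489537 to 5514958, minus strand) lies in proximal tubule junctions and has been linked to calcium permeability. It was at 68.9, 83.02 and 72.2 CPM with DXZ and 77.7, 85.4, 78.7 and 75.9 CPM with saline, with overlapping groups. Its log2 fold change was -0.09 ± 0.10 (edgeR adjusted p = 0.616), with the smallest SE of the 10 claudins. The 16 proximal tubule markers, many of them transporters, were lower with DXZ by their log2 fold changes. They summed to 9447, 6421 and 8570 CPM with DXZ, against 37448, 18249, 11636 and 14408 CPM with saline, with 8 of 16 lower, 0 higher and a median log2 fold change of -1.42. A large part of these sums was 1 gene, Kap, which was not called (-1.20, edgeR adjusted p = 0.364). Kap was at 4289, 2212 and 3218 CPM with DXZ and 18073.5, 7320, 2639 and 1730 CPM with saline, with overlapping groups. Slc7a7, a basolateral amino acid transporter, had -2.22 (edgeR adjusted p = 0.0204) and Slc5a12, a lactate transporter, -2.13 (edgeR adjusted p = 0.0209). Without DXZ 2, and also without saline 4, none of the 8 calls was kept, and 2 of the 16 were called without DXZ 3 and 4 without saline 2.

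**Figure D2:**
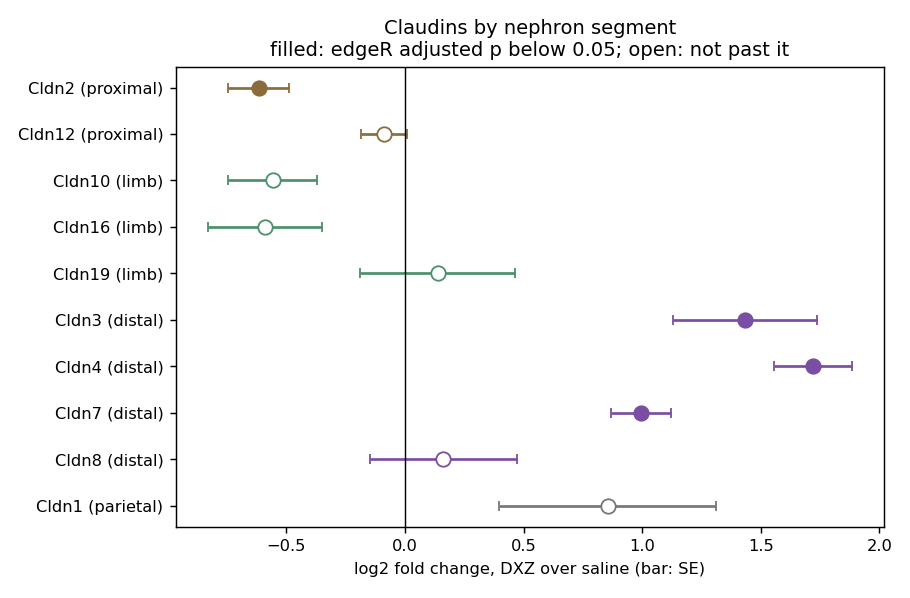
Log2 fold change of the 10 claudins, DXZ over saline, with bars of 1 SE from edgeR, ordered by segment, filled where the adjusted p was below 0.05. Cldn4 at 1.72, Cldn3 at 1.43 and Cldn7 at 0.99 passed the test on the higher side and Cldn2 at -0.62 on the lower side.

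None of the 3 thick ascending limb claudins passed the test. Cldn10 (ENSMUSG00000022132, chromosome 14, 118787908 to 118875489, plus strand) was at 101, 63.6 and 77.2 CPM with DXZ, against 107, 119, 101 and 147 CPM with saline. DXZ 2 and DXZ 3 lay below every saline library, while DXZ 1 and saline 3 were level. The log2 fold change was -0.56 ± 0.19 (edgeR adjusted p = 0.114). Without DXZ 1 it was -0.75 with an adjusted p of 0.0415, and DESeq2 on all 7 libraries gave an adjusted p of 0.0423, in a range of 0.0415 to 0.259 over 16 alternatives. RefSeq places start sites of this gene at 118787871 and 118854950, and the table counts the transcripts of the proximal and the limb isoforms together.

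Cldn16 (ENSMUSG00000038148, chromosome 16, 26463135 to 26482765, plus strand), the divalent cation claudin, was the lowest of the 10 by mean CPM, at 15.3, 8.16 and 12.4 CPM with DXZ and 17.2, 14.5, 17.2 and 23.1 CPM with saline. DXZ 1 stood among the saline libraries. Its log2 fold change of -0.59 ± 0.24 gave an edgeR adjusted p of 0.171. Cldn19 (ENSMUSG00000066058, chromosome 4, 119255414 to 119262438, plus strand), its partner in the strand, was at 67.4, 30.1 and 37.7 CPM with DXZ and 23.5, 44.4, 44.96 and 50.9 CPM with saline. DXZ 1 was the highest library for Cldn19 and saline 1 the lowest, with the other 5 between. Its log2 fold change was 0.14 ± 0.33 (edgeR adjusted p = 0.833), and it turned negative without DXZ 1 (-0.27) and without saline 1 (-0.06). The FPKM ratio of Cldn16 to Cldn19 was 0.823, 0.985 and 1.20 with DXZ, against 2.66, 1.18, 1.39 and 1.65 with saline, and these ranges overlapped.

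The 8 other markers of the limb summed to 3386, 1283 and 1742 CPM with DXZ, against 2563, 3233, 2764 and 4362 CPM with saline. Most of each sum was 1 gene, Umod, at 2512, 706 and 1078 CPM with DXZ and 1335, 1966, 1715 and 2315 CPM with saline. The groups of Umod overlapped, while those of Slc12a1, at 278 to 537 CPM with DXZ and 570 to 1150 CPM with saline, did not. As for Cldn10, Cldn16 and Cldn19, DXZ 1 was the highest of its group in this sum. All 8 had negative log2 fold changes, with a median of -0.56, and 1 of 8 fell. Without DXZ 1 the median was -0.99 and 3 of the 8 were lower. The gene that fell with all libraries was Egf, whose product keeps the magnesium channel of the distal convoluted tubule active, at 85.2, 29.1 and 33.01 CPM with DXZ and 333, 269, 121 and 445 CPM with saline (-2.57 ± 0.54, edgeR adjusted p = 0.0390). The cotransporter Slc12a1 had -0.99 (edgeR adjusted p = 0.0947) and uromodulin, Umod, -0.36 (adjusted p = 0.640). The call of Egf was lost in 5 of the 7 fits without 1 library, those without DXZ 2, DXZ 3, saline 1, saline 2 or saline 4, in which its log2 fold change lay between -2.61 and -2.30.

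Cldn1 (ENSMUSG00000022512, chromosome 16, 26356642 to 26371841, minus strand), a sealing claudin of parietal cells, was at 101, 112 and 45.4 CPM with DXZ and 22.8, 86.05, 47.7 and 34.2 CPM with saline. DXZ 1, DXZ 2 and saline 2 were the 3 high libraries, and DXZ 3 lay in the range of the other saline libraries. The log2 fold change was 0.85 ± 0.46 (edgeR adjusted p = 0.286), the largest SE of the 10. Of the 7 parietal cell markers 1 rose, the keratin Krt8 (1.20, edgeR adjusted p = 0.0204), which injured tubules also make and which was not called without DXZ 2 or saline 4. The median log2 fold change of the 7 was 0.12, between 0.06 and 0.35 when 1 library was left out. They summed to 688 to 909.8 CPM with DXZ, against 406 to 554 CPM with saline, and Krt8 was the highest of the 7 in every library.

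Averaged by segment, the distal claudins stood higher with DXZ and the proximal claudins lower. The mean log2 CPM of the 4 distal claudins was 6.50, 6.63 and 6.89 with DXZ, against 5.18, 5.57, 5.93 and 5.58 with saline, a difference of 1.11. The 2 proximal claudins had 7.54, 7.54 and 7.60 with DXZ, against 7.87, 7.98, 7.87 and 7.95 with saline, a difference of -0.36. The 3 limb claudins had 5.56, 4.65 and 5.05 with DXZ, against 5.14, 5.41, 5.43 and 5.80 with saline, also a difference of -0.36, with DXZ 1 inside the saline range. These differences are descriptions without a test, and each mean covers unlike genes. Of the proximal claudins, Cldn2 had a log2 fold change of -0.62 but Cldn12 -0.09, with overlapping groups. Cldn8 among the distal claudins (0.16) and Cldn19 in the limb (0.14) also had overlapping groups.

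Per gene length, the make-up of the claudins differed between the groups. Of the summed FPKM of the 10 claudins, Cldn4 took 30.3%, 32.3% and 28.2% with DXZ, against 12.4%, 10.9%, 13.1% and 7.33% with saline. Cldn2 took 29.2%, 25.8% and 29.0% with DXZ, against 54.1%, 50.4%, 46.8% and 52.1% with saline. The FPKM ratio of Cldn4 to Cldn2, barrier over pore, was 1.04, 1.25 and 0.972 with DXZ, against 0.230, 0.216, 0.279 and 0.141 with saline. Cldn4 was thus near Cldn2 in FPKM in DXZ 1 and DXZ 3 and above it in DXZ 2, while Cldn2 was well above Cldn4 in each saline library.

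By segment, the distal claudins took 55.0 ± 3.87% of the summed FPKM with DXZ and 26.4 ± 4.0% with saline (SD, n = 3 and 4). The proximal claudins took 31.4 ± 1.40% with DXZ and 55.2 ± 3.24% with saline. The limb claudins took 10.04 ± 2.71% with DXZ and 16.2 ± 1.92% with saline. The summed FPKM of all 10 was 508, 489 and 536 with DXZ, against 389, 440, 441 and 468 with saline, so the total was somewhat higher in each DXZ library. Shares sum to a fixed total, so a rise of one lowers the others.

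The order of the 10 by FPKM also differed. Cldn4 was the highest in DXZ 1 and DXZ 2, and Cldn2 was the highest in DXZ 3 and in all 4 saline libraries. In DXZ libraries Cldn4 at 154 ± 3.50 FPKM and Cldn2 at 143 ± 15.2 FPKM, which differed by less than the SD of Cldn2, were followed by Cldn3 at 56.5 ± 16.7 FPKM and Cldn7 at 41.8 ± 3.96 FPKM, whose means differed by less than the SD of Cldn3. In saline libraries Cldn2 at 221 ± 16.8 FPKM was followed by Cldn4 at 47.0 ± 9.61 FPKM and Cldn10 at 45.7 ± 8.03 FPKM, which differed by less than their SDs. Then came Cldn8 at 25.7 ± 10.3 FPKM, Cldn3 at 20.97 ± 6.86 FPKM and Cldn7 at 21.05 ± 2.98 FPKM. The lowest of the 10 was Cldn16 in DXZ 1 and DXZ 2, Cldn19 in DXZ 3 and saline 2, and Cldn1 in the other 3 saline libraries. In saline 4, Cldn10 and Cldn8 also stood above Cldn4.

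**Figure D3:**
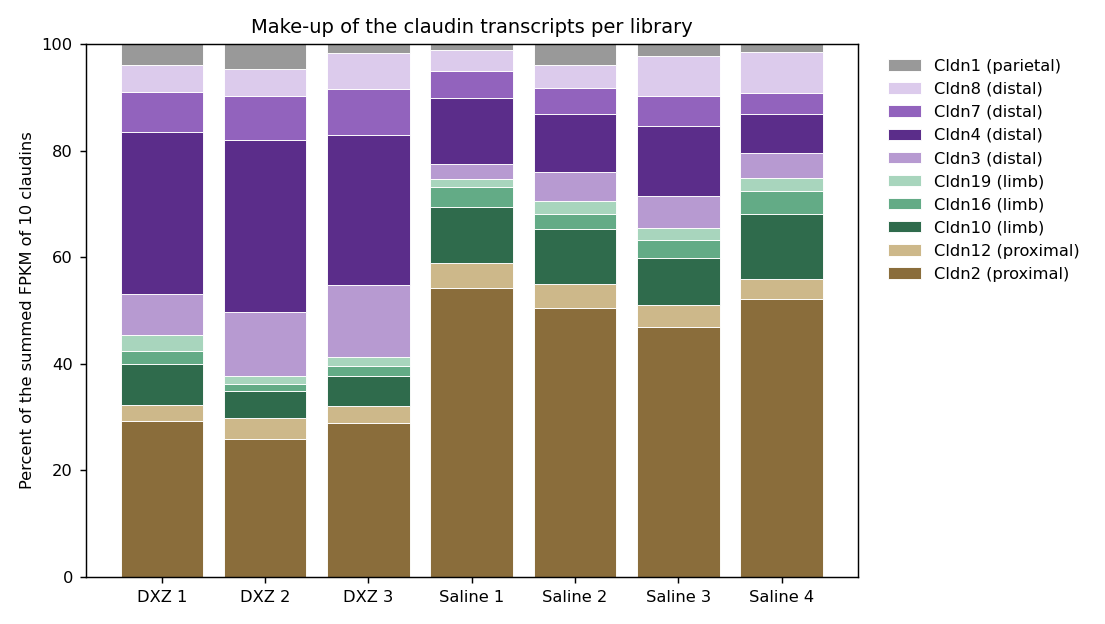
Share of each claudin in the summed FPKM of the 10, in percent, as 1 stacked bar per library, with the DXZ libraries left of the saline libraries. Cldn4 takes 28.2% to 32.3% in the DXZ bars and 7.33% to 13.1% in the saline bars, and Cldn2 takes 25.8% to 29.2% in the DXZ bars and 46.8% to 54.1% in the saline bars.

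Set against markers of the segment it was paired with here, Cldn2 stood higher with DXZ, although its CPM fell. The 16 proximal markers had a median log2 fold change of -1.42, lower than the -0.62 of Cldn2. The measure is the log2 CPM of a claudin less the mean log2 CPM of the non-claudin markers of its segment, for 9 claudins, compared by an exact two-sided permutation test over libraries whose smallest possible p is 0.0571. Since p cannot go below 0.05 here, these values are given for their size and overlap. They also depend on the pairing, because a claudin can be made outside the segment it was paired with. Cldn3, for example, is found from the thin limb on but was set against principal cell markers, and Cldn10 is also made in the proximal tubule. Cldn2 less 16 proximal markers was 1.22 ± 0.17 with DXZ and 0.30 ± 0.53 with saline (SD, n = 3 and 4, exact p = 0.0571, Benjamini-Hochberg adjusted 0.0857). Cldn12 less the same markers was -1.46 ± 0.47 with DXZ and -2.91 ± 0.53 with saline, and neither gene's groups overlapped. The difference DXZ minus saline was 0.92 for Cldn2 and 1.45 for Cldn12.

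In the limb, Cldn10 less 8 markers was 0.74 ± 0.13 with DXZ and 0.43 ± 0.13 with saline, and Cldn19 was -0.16 ± 0.18 with DXZ and -1.15 ± 0.43 with saline, both without overlap (exact p = 0.0571, adjusted 0.0857). Cldn16 less the same markers was -2.02 ± 0.23 with DXZ and -2.29 ± 0.14 with saline, with overlap (exact p = 0.171). Against 11 principal cell markers, Cldn4 was at 1.77 ± 0.50 with DXZ and 0.48 ± 0.61 with saline, and Cldn3 at -0.25 ± 0.44 with DXZ and -1.26 ± 0.42 with saline, without overlap (exact p = 0.0571). Cldn7 differed by 0.55 and Cldn8 by -0.22 (DXZ minus saline), both with overlapping groups (exact p = 0.171). Cldn8 was the only one of the 9 whose difference was negative.

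**Figure D4:**
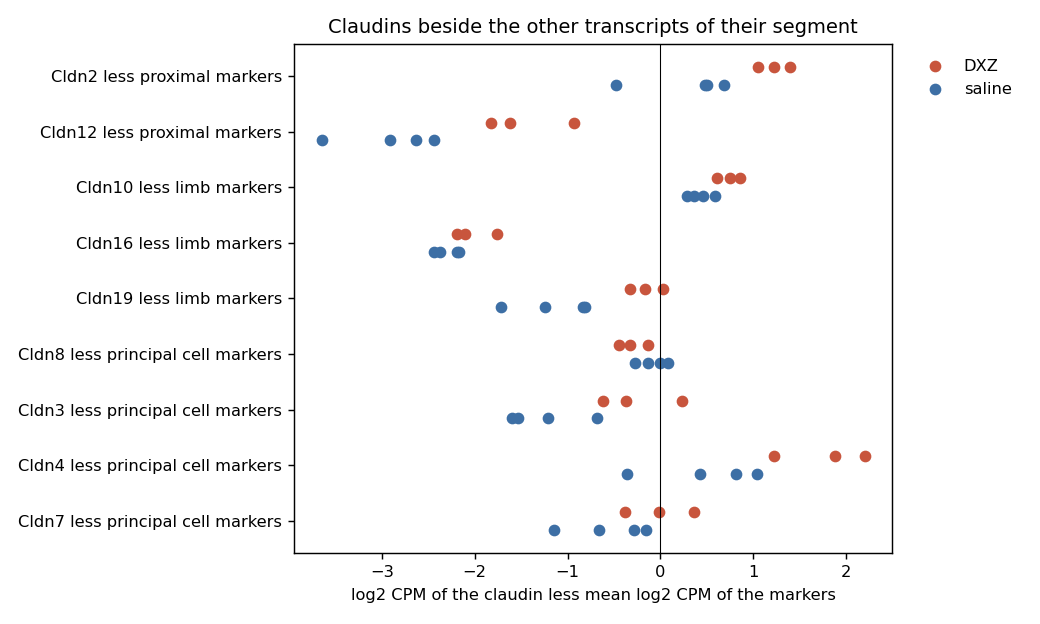
Log2 CPM of 9 claudins less the mean log2 CPM of the markers of the segment each was paired with. There is 1 point per library, with DXZ above saline in each row. The difference DXZ minus saline runs from -0.22 for Cldn8 to 1.45 for Cldn12, and the groups of Cldn7, Cldn8 and Cldn16 overlap.

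The table holds 23 further claudin genes. Of these, 15 had a count in some library and 5 were tested, and edgeR called 0 of the 5 (2 at an unadjusted p below 0.05), against 1 by DESeq2. The median log2 fold change of the 5 was 0.03, between -0.20 and 0.19 when 1 library was left out. The highest fold change was that of Cldn23, at 2.31, 4.29 and 3.72 CPM with DXZ and 0.401, 1.19, 1.65 and 0.646 CPM with saline (1.82 ± 0.48, edgeR adjusted p = 0.0624). Its groups did not overlap but its counts were low, and it passed in 6 of 16 alternatives, in which its adjusted p ranged from 0.00721 by DESeq2 to 0.173 without DXZ 2. Cldn6, a claudin of immature nephrons, averaged 5.05 ± 2.49 CPM with DXZ and 2.40 ± 0.948 CPM with saline (1.07, adjusted p = 0.160). Cldn14, which blocks the cation route of Cldn16 and Cldn19 in the limb, averaged 0.950 ± 0.353 CPM with DXZ and 1.61 ± 0.383 CPM with saline (-0.76, adjusted p = 0.259). Cldn15 was at 23.95, 7.01 and 3.42 CPM with DXZ and 15.4, 16.9, 15.9 and 14.9 CPM with saline, and the DXZ libraries lay on both sides of the saline ones. Cldn5, the endothelial claudin, averaged 14.8 ± 4.15 CPM with DXZ and 14.4 ± 2.07 CPM with saline.

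Of 14 tested other membrane proteins of the junction, 2 rose and 1 fell, against 5.56% called of all tested genes, with a median log2 fold change of 0.30. Epcam, which binds Cldn7, averaged 239 ± 57.1 CPM with DXZ and 141 ± 34.6 CPM with saline (0.76, adjusted p = 0.0880), which did not pass. Crb3, a polarity protein, rose (47.9 ± 4.99 CPM with DXZ and 35.3 ± 2.28 CPM with saline, 0.44, edgeR adjusted p = 0.0477). Ildr2, an angulin of tricellular junctions, fell, with 47.9 ± 2.58 CPM with DXZ and 76.6 ± 11.5 CPM with saline (-0.68, edgeR adjusted p = 0.0336). Occludin, Ocln, had 0.25 (adjusted p = 0.221). None of the 3 calls was kept without DXZ 2 or without saline 4, and over the 7 fits 0 to 3 of the 14 were higher and 0 to 2 lower. Of the fits without 1 library, Crb3 was called in 1 (without DXZ 1) and Ildr2 in 2 (without DXZ 1 or saline 2).

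Of 26 tested proteins of the plaque under the junction, 4 rose and 0 fell, and the median log2 fold change was 0.06, between 0.04 and 0.17 when 1 library was left out. Ybx3, a transcription factor held at the junction, averaged 133 ± 11.7 CPM with DXZ and 90.9 ± 7.04 CPM with saline and had a log2 fold change of 0.55 (edgeR's adjusted p = 0.0301), the actin linker Afdn 0.36 (adjusted p = 0.0446) and the polarity protein Pard6b 0.49 (adjusted p = 0.0463). The scaffold Tjp1, which binds claudin tails, had 0.12 (adjusted p = 0.580) and did not pass. Of the 4, none was called without DXZ 2, DXZ 3, saline 1, saline 2 or saline 4, and without DXZ 1, 3 of the 26 were higher and 2 lower. The fold changes of the 4 were smaller than those of Cldn3, Cldn4 and Cldn7.

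Among 24 tested genes known to control claudins, 1 rose and 1 fell, with a median log2 fold change of -0.42. Without DXZ 1, 0 of the 24 were higher and 6 lower, and without DXZ 2 none was called. St14, a membrane protease of collecting duct and other epithelia, averaged 232 ± 25.7 CPM with DXZ and 134 ± 29.3 CPM with saline (0.79, edgeR adjusted p = 0.0486). The gene that fell was Egf, described above. The calcium-sensing receptor Casr, which acts on the limb claudins, did not pass (-0.56, adjusted p = 0.243), and neither did Tmem207, which lies beside Cldn16 (-1.29, adjusted p = 0.105). Nor did Hnf4a, a transcription factor of the proximal tubule (-0.84, adjusted p = 0.0588), nor Grhl2, a factor known to act on Cldn4 (0.54, adjusted p = 0.266). St14 was called in 1 of the 7 fits without 1 library, the one without saline 1.

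Of 14 tested genes of adherens junctions and desmosomes, 2 rose and 0 fell, with a median log2 fold change of 0.35. E-cadherin, Cdh1, averaged 340.4 ± 49.9 CPM with DXZ and 210.1 ± 25.8 CPM with saline (0.70, edgeR adjusted p = 0.0379), and the desmosome plaque gene Pkp2 averaged 76.8 ± 17.7 CPM with DXZ and 49.2 ± 3.999 CPM with saline (0.64, edgeR adjusted p = 0.0495). Both were called in 1 of the 7 fits without 1 library, the one without DXZ 1.

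**Figure D5:**
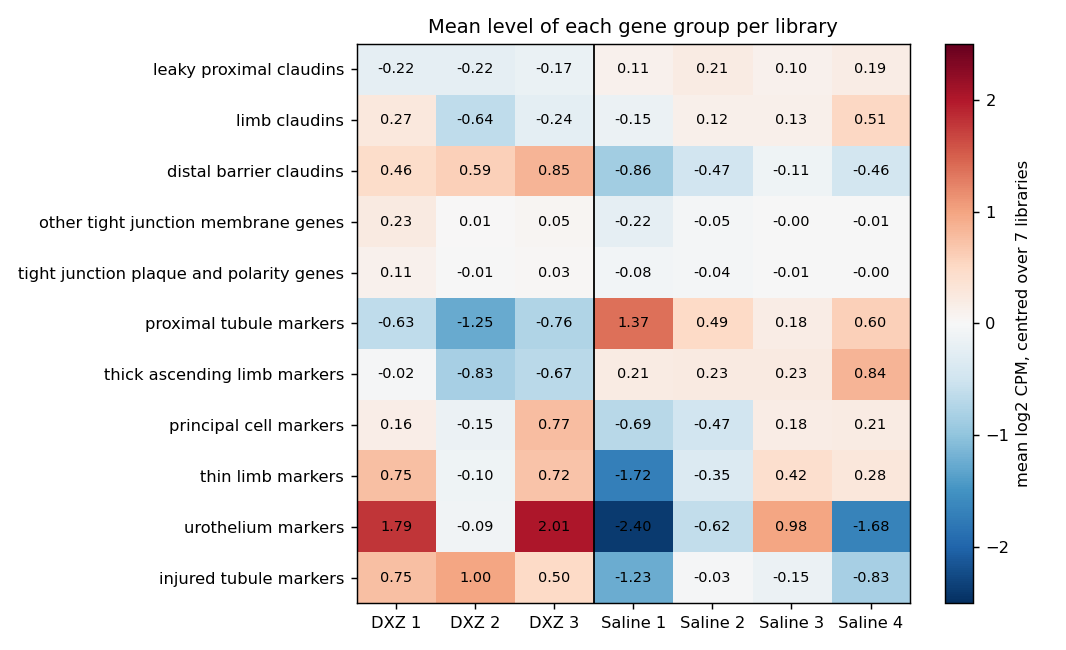
Mean log2 CPM of each gene group in each library, centred over the 7 libraries, as a heat map with the DXZ libraries left of the saline libraries, blue for below and red for above the mean. The distal claudins run from 0.46 to 0.85 with DXZ and from -0.86 to -0.11 with saline. The other membrane genes of the tight junction differ less, from 0.01 to 0.23 with DXZ and from -0.22 to -0.001 with saline, and also do not overlap.

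The neighbours of a claudin in these data were taken as the protein-coding genes with at least 5 CPM whose centred log2 CPM over the 7 libraries differed least from its own (root mean square difference, among 10793 genes). Those of Cldn4 were Smox, a spermine oxidase, at 0.167, Insyn1 at 0.206 and Akr1b8, an aldo-keto reductase, at 0.257. Those of Cldn7 were Hap1 at 0.116, Klf10 at 0.117 and the syndecan gene Sdc1 at 0.117. Those of Cldn3 were B4galt6 at 0.131, Sphk1, a sphingosine kinase, at 0.145 and Rhou at 0.193. No gene came closer to the profile of Cldn4 than 0.167.

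The 3 nearest genes of Cldn2 were closer. They were Slc51b, a subunit of the basolateral steroid and bile acid transporter, at 0.0455, Acox3, a peroxisomal oxidase, at 0.0569 and Mmab, of cobalamin metabolism, at 0.0798. For Cldn8 they were Tspan1 at 0.0810, Mgll at 0.0823 and the potassium channel gene Kcnq1 at 0.0925, and for Cldn10 they included Pfkm at 0.105 and Rab11fip4 at 0.107. For Cldn16 they were Zfp866 at 0.110, Vwa2 at 0.115 and Map3k12 at 0.119. The nearest gene of Cldn19 was Rcan1 at 0.168 and that of Cldn1 was Steap1 at 0.204.

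Cldn4 and Cldn3 lie side by side on chromosome 5 on opposite strands, 39.3 kb apart with 0 protein-coding genes between them, and both rose. Cldn1 and Cldn16 form a similar pair on chromosome 16, 91.3 kb apart with 0 protein-coding genes between them. Their log2 fold changes had opposite signs and neither passed. Antisense genes overlap Cldn3 over 40 bases (Wbscr25, 8 counts in all 7 libraries together) and Cldn19 over 1562 bases (Gm12927, 65 counts). Whether the counting used strand is not given, so reads in these overlaps cannot be told apart.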

How the data were processed

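Bulk kidney RNA was sequenced in 7 libraries, 3 of Cis_DXZ and 4 of Cis_Saline, grouped by their titles. The deposited table gives the authors' counts per gene, not normalized, and their deposited FPKM values; the submitters' processing notes name HISAT2 and StringTie without versions and the build mm9, while the gene coordinates are those of GRCm38 for 53499 of 54409 shared gene IDs in GENCODE M21 (98.3%). No source used here names the counting program or its strand setting. Within each library, FPKM equalled the count divided by gene length and 1 constant, so FPKM adds no independent measurement.

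Counts were filtered (filterByExpr), scaled by the trimmed mean of M values and tested with the quasi-likelihood test of edgeR 4.0.16 in R 4.3.3, with Benjamini-Hochberg adjustment over 15351 genes. Log2 CPM used a prior count of 2. DESeq2 1.42.0, limma 3.58.1, other filters, scalings and left-out libraries were alternatives. The scripts were tested on simulated data. Libraries of a group differed by more than sampling noise, with a chi-square per degree of freedom of 14.8 to 97.5. The number of libraries, more than counting error, limits the precision.

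The claudins, gene lists and tests were chosen with earlier results of these data known. Besides the 10 claudins, the text names other claudins with at least 0.5 CPM on average, up to 4 called genes of lowest adjusted p per junction or regulator list, up to 2 per marker list, and the 3 nearest genes of each claudin. Ocln, Epcam, Tjp1, Casr, Tmem207, Hnf4a, Grhl2, Slc12a1, Umod, Avpr2, Upk2, Upk3a, Aqp1 and Kap were named after their values were seen. A few genes that this rule picks are not reported here.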

Additional observations from a re-analysis of the deposited data

How the results depend on the processing

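Over 16 alternatives the log2 fold change of Cldn4 lay between 1.59 and 1.83 and it was called in 15 (adjusted p from 1.04e-17 to 0.0612). Cldn7 was called in 14 (0.92 to 1.10, adjusted p from 2.10e-08 to 0.0747), Cldn3 in 10 (1.22 to 1.63, adjusted p from 0.000242 to 0.114) and Cldn2 in 8 (-0.68 to -0.54, adjusted p from 1.79e-05 to 0.141). Leaving out each library in turn gave 0 to 5 called claudins and 1 to 1574 called genes, against 4 claudins and 853 genes with all libraries: 1574 genes without DXZ 1, 1 without DXZ 2, 141 without DXZ 3, 374 without saline 1, 296 without saline 2, 426 without saline 3 and 4 without saline 4. Of 24 called genes (the 4 claudins and those picked from the junction, regulator and marker lists), none was called without DXZ 2, and without saline 4, where 23 could be tested, 1 was, Cldn4. No tested one changed sign. DESeq2 called 2116 genes, and limma on log2(FPKM + 0.1) without a filter called 261 genes and 2 claudins. The 2 libraries left out together, saline 1 and DXZ 1, were chosen after seeing the data, and 1332 genes were then called. The cause was not tested.

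With 1 library left out, the log2 fold change of Cldn8 ran from -0.0503 (without DXZ 3) to 0.36 (without saline 4), and it was -0.03 without saline 1. That of Cldn19 ran from -0.27 (without DXZ 1) to 0.34 (without DXZ 2), with -0.06 without saline 1, and it was -0.13 with limma-voom and -0.47 without both saline 1 and DXZ 1. That of Cldn5 ran from -0.20 (without DXZ 1) to 0.19 (without DXZ 3), with -0.03 without saline 1 and -0.00248 without saline 2, and it was -0.14 with limma-voom and -0.26 without saline 1 and DXZ 1. The 27 recomputed segment means and the 81 recomputed differences from segment markers kept their direction.

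The groups share replicate numbers, but the deviations of same-numbered libraries correlated at 0.26, -0.09 and 0.23, and 0 of 3 DXZ libraries correlated best with its own number. With so few pairs, these values cannot decide whether same-numbered libraries share more than a number. With the replicate number as a block, 85 genes and 3 claudins were called, without Cldn2 (adjusted p = 0.141).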

Other observations

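The calls among endothelial and fibroblast markers depended on DXZ 1. EdgeR called 0 of 10 endothelial markers with all libraries (0 at an unadjusted p below 0.05, 0 by DESeq2), with a median log2 fold change of -0.60. Without DXZ 1 it called 9 of the 10, all lower with DXZ, with a median of -1.37, and without DXZ 3 the median was -0.22. Of 7 fibroblast markers 0 were called with all libraries (0 unadjusted, 0 by DESeq2), with a median of -0.23. Without DXZ 1, 3 of the 7 were lower and the median was -2.21, and without DXZ 3 it was 0.22. With saline 1 also left out beside DXZ 1, 9 endothelial and 0 fibroblast markers were called, with medians of -1.37 and -2.06.

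Of 10 macrophage markers, 2 were higher with DXZ, Cd68 by 1.91 on the log2 scale (adjusted p = 0.0215 in edgeR) and Cd14 by 0.90 (adjusted p = 0.0275 in edgeR). Cd68 was not called without DXZ 2 or saline 4, and Cd14 not without DXZ 2, DXZ 3, saline 2 or saline 4. The median of the 10 was 0.003 with all libraries, and without DXZ 1 it was -1.51, with 2 higher and 3 lower. EdgeR called 0 of 8 podocyte markers (3 at an unadjusted p below 0.05, 2 by DESeq2; 2 lower without DXZ 1), with a median of -0.41, and 0 of 5 tested neutrophil markers (0 unadjusted, 0 by DESeq2), with a median of 0.60, or 0.02 without DXZ 1.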
